A study of Mus musculus with 2 samples.

Results

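The sortilin receptors are the 5 genes Sort1, Sorl1, Sorcs1, Sorcs2 and Sorcs3, chosen by gene symbol from the 24015 symbols in the deposited count files. J-RGCs are 1 of the types of ganglion cell in the retina, and their RNA was measured in mice at postnatal day 6. The cells were marked with green fluorescent protein from a transgenic line described as specific to the type, and were isolated with magnetic beads and flow cytometry. The sources used here do not name the promoter that drives the marker or the mouse strain. There were 2 libraries in 1 group, A and B, each from a different litter and a pool of 5 to 6 animals, with 7916204 and 13744313 gene counts. No other cell type, age or treatment was sampled, so levels were compared between genes within these cells and between the libraries.

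Sortilin receptors are membrane proteins that share the Vps10p domain, a large propeller-shaped binding domain outside the cell or inside the Golgi and endosomes. They carry cargo between the Golgi, endosomes and the cell surface, and several act with other receptors in neurotrophin signalling. SorCS3 has been studied in J-RGCs as a receptor downstream of the T-box factor Tbr1 in the placement of their dendrites.

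All 5 genes were read in both libraries. Sorcs1 and Sort1 were the highest per length, at 34.1 ± 7.35 and 23.2 ± 3.85 CPM per kilobase of exon (mean ± SD, n = 2 libraries). Sorl1, Sorcs3 and Sorcs2 followed at 9.80 ± 1.29, 9.22 ± 2.30 and 6.05 ± 5.25 CPM per kilobase. Sorcs2 was the member whose libraries lay furthest apart, 4.17-fold higher in B. CPM is the count scaled to a library gene total of 1000000, and was divided by the summed exon length wherever genes are compared with each other. In bulk RNA, fewer cells of a type and less RNA per cell cannot be told apart.

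The 250 bases before the annotated start of Sorcs3 and of Sorl1 are shown because these genes stood at nearly equal levels per length in both libraries and the windows shown differ in composition. They come from RefSeq on build GRCm38.p6, with windows chr19:48205775-48206024 on the plus strand and chr9:42124298-42124547 on the minus strand. Of the 5 genes, Sorcs1, Sorcs3 and Sorl1 were matched in that table, and for Sorl1 the more upstream of its listed starts was taken. Capitals mark a GC box, GGGCGG on either strand.
Sorcs3: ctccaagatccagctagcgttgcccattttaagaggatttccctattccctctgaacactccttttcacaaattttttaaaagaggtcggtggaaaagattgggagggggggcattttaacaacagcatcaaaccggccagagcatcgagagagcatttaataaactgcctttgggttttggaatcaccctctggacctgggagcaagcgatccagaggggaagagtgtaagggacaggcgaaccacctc
Sorl1: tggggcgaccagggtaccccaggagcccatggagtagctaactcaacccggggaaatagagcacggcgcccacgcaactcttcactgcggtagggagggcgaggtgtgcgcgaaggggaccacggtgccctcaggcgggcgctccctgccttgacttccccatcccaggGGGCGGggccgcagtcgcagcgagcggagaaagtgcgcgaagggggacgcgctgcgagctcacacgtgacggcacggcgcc

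The Sorcs3 window held 48.4% G and C and 6 CG dinucleotides, and the Sorl1 window 69.6% and 26. The other Sorl1 start in the table had a window of 47.2% G and C with 9 CG dinucleotides, close to that of Sorcs3, and none of the motifs below. For Sorcs1, also on chromosome 19, the window before the start held 79.6% G and C and 41 CG dinucleotides. Over the 32851 windows of that length in the table the medians were 52.4% and 6. The GC box was found once in the Sorl1 window shown and 2 times in that of Sorcs1, and 32.7% of all windows held it. The T-box motif AGGTGTGA, searched because Tbr1 is a T-box factor, was found in none of these windows, against 1.12% of all windows. TATAAA and TAATTA were also not found there, against 12.4% and 4.84% of all windows. The E-box CANNTG was found once in the Sorl1 window shown and in 66.2% of all windows. Both strands were searched, and no match overlapped one of another motif. No match says only that these letters are not in these bases.

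Detection is given first, as counts and CPM per library. Detected means that neither library fell below a CPM of 1, which held for 46.8% of all symbols and for all 5 sortilin receptors. A gene without a read could still have stood at up to 0.379 CPM in A or 0.218 CPM in B, the level of 3 counts. The intervals on single CPM values below are exact Poisson intervals. They and these upper limits cover counting error only, since amplified reads carry no molecular identifiers.

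Sort1 encodes sortilin, which binds proneurotrophins, neurotensin and progranulin and moves cargo from the Golgi to lysosomes. It had 1229 counts in A and 2700 in B, or 155 CPM (95% interval 147 to 164) and 196 CPM (189 to 204). It ranked 1253 and 998 among all symbols by CPM.

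Sorl1 encodes SorLA, which returns the amyloid precursor protein from endosomes to the Golgi and is a risk gene of Alzheimer's disease. It had 797 and 1667 counts, or 101 CPM (93.8 to 108) in A and 121 CPM (116 to 127) in B. Its summed exons, 11321 bases, were the longest of the 5 genes, which lowers its level per length relative to the shorter genes. With gene totals as the scale its values in the 2 libraries were the closest of the family, at 1.205-fold of B over A, whereas with TMM those of Sort1 were, at 0.970-fold.

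Sorcs1 encodes a receptor that sorts neurexins and AMPA receptors in neurons. It had 2623 and 3349 counts, or 331 CPM (319 to 344) in A and 244 CPM (235 to 252) in B. It was the only sortilin receptor with the higher CPM in A, joined by Sort1 and Sorl1 under TMM scaling, and it ranked 539 and 775 among all symbols.

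Sorcs2 encodes a receptor that acts with the neurotrophin receptor Ngfr in the response of growth cones to proneurotrophins. It had 163 counts in A and 1181 in B, or 20.6 CPM (17.6 to 24.0) and 85.9 CPM (81.1 to 91.0). It was the lowest sortilin receptor in A by CPM, while in B it lay above Sorcs3 by CPM and below it per length.

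Sorcs3 encodes a receptor found at postsynaptic sites. It had 429 and 1063 counts, or 54.2 CPM (49.2 to 59.6) in A and 77.3 CPM (72.8 to 82.1) in B. Its ranks among all symbols were 3029 and 2572.

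Per kilobase of exon, Sorcs1 stood at 39.3 in A and 28.9 in B, and Sort1 at 20.5 and 26.0. Sorl1 stood at 8.89 and 10.7, Sorcs3 at 7.60 and 10.8, and Sorcs2 at 2.34 and 9.76 CPM per kilobase. The order was Sorcs1, Sort1, then Sorl1 and Sorcs3, then Sorcs2 in both libraries, with Sorl1 above Sorcs3 in A and just below it in B. Each value of Sorcs1 and Sort1 lay above every value of the other 3 genes. Among the 16102 symbols with a count and a length, Sorcs1 stood at percentile 95.03 in A and 92.9 in B, Sort1 at 89.8 and 92.0, Sorl1 at 79.3 and 80.1, Sorcs3 at 77.0 and 80.3, and Sorcs2 at 56.8 and 78.5. The family median was 8.89 CPM per kilobase in A and 10.8 in B, beside 3.99 and 5.23 over the 10723 detected symbols with a length.

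**Figure D1:**
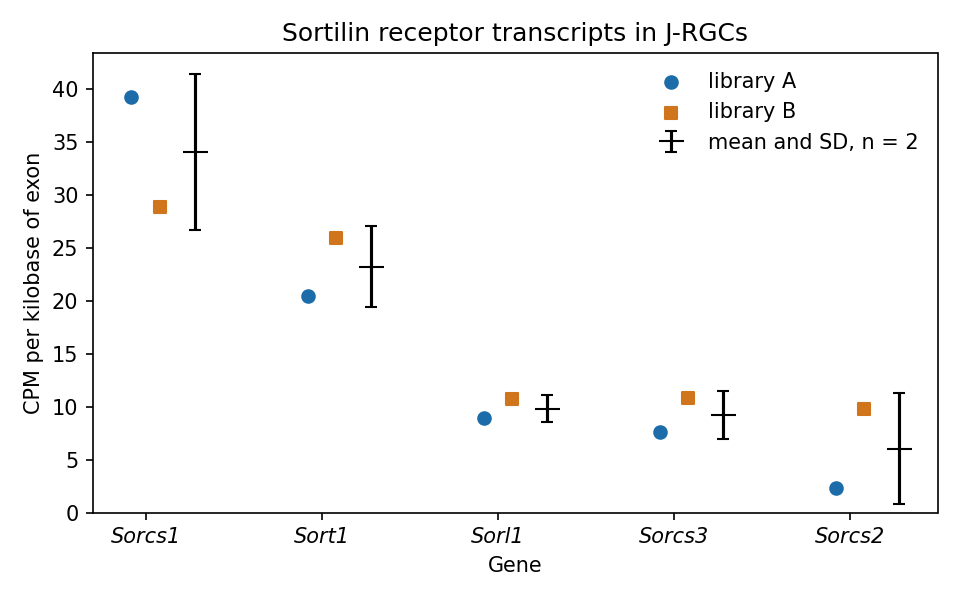
Level of each sortilin receptor gene in CPM per kilobase of exon (linear axis from 0), with library A as circles, library B as squares, and the mean with SD over the 2 libraries beside them. Sorcs1 and Sort1 lie above 20 in both libraries, while Sorcs2 lies at 2.34 in A and 9.76 in B.

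Sorcs1 made up 49.9% of the family's summed CPM per kilobase in A and 33.5% in B. Sort1 made up 26.1% and 30.1%, Sorl1 11.3% and 12.4%, and Sorcs3 9.67% and 12.6%. Sorcs2 made up 2.98% and 11.3%. The 5 genes together held 662 CPM in A and 725 CPM in B, or 0.0662% and 0.0725% of gene counts.

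Which neighbours in this order could be told apart was asked with the ratio of each of the 10 pairs per length. Its 95% interval combines counting error with the trended dispersion of edgeR, the spread between the libraries as fitted over all genes. In 5 of the 10 pairs the interval excluded 1. Sorcs1 exceeded Sorcs3 3.69-fold (interval 1.496 to 9.11), Sorl1 3.47-fold (1.40 to 8.63) and Sorcs2 5.63-fold (2.11 to 15.0). Sort1 exceeded Sorcs2 3.84-fold (1.48 to 9.94) and Sorcs3 2.52-fold (1.05 to 6.03).

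Neighbours in the order were not separated by these intervals. Sorcs1 over Sort1 was 1.47-fold (0.579 to 3.71), Sort1 over Sorl1 2.37-fold (0.983 to 5.71), Sorl1 over Sorcs3 1.06-fold (0.453 to 2.49) and Sorcs3 over Sorcs2 1.52-fold (0.604 to 3.85). Sort1 over Sorl1 was steady between libraries at 2.31 in A and 2.42 in B, as was Sort1 over Sorcs3 at 2.70 and 2.39. Ratios with Sorcs2 moved most, with Sorcs1 over Sorcs2 at 16.8 in A and 2.96 in B. The trended dispersion is fitted over all genes, so intervals with Sorcs2 do not measure that gene's own wider spread, 53.3 ± 46.2 CPM.

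In B alone none of the 10 intervals excluded 1, and Sorcs1 over Sorcs3 was 2.66-fold there (0.755 to 9.38). With intervals adjusted over the 10 pairs, Sorcs1 over Sorcs3 (1.01 to 13.5) and Sorcs1 over Sorcs2 stayed separated, and Sort1 over Sorcs3 also lost its call with the longest coding transcript as length (2.20-fold, 0.921 to 5.28) or the common dispersion (0.921 to 6.89). With the longest coding transcript the neighbours Sort1 and Sorl1 became separated (2.48-fold, 1.03 to 5.99).

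**Figure D2:**
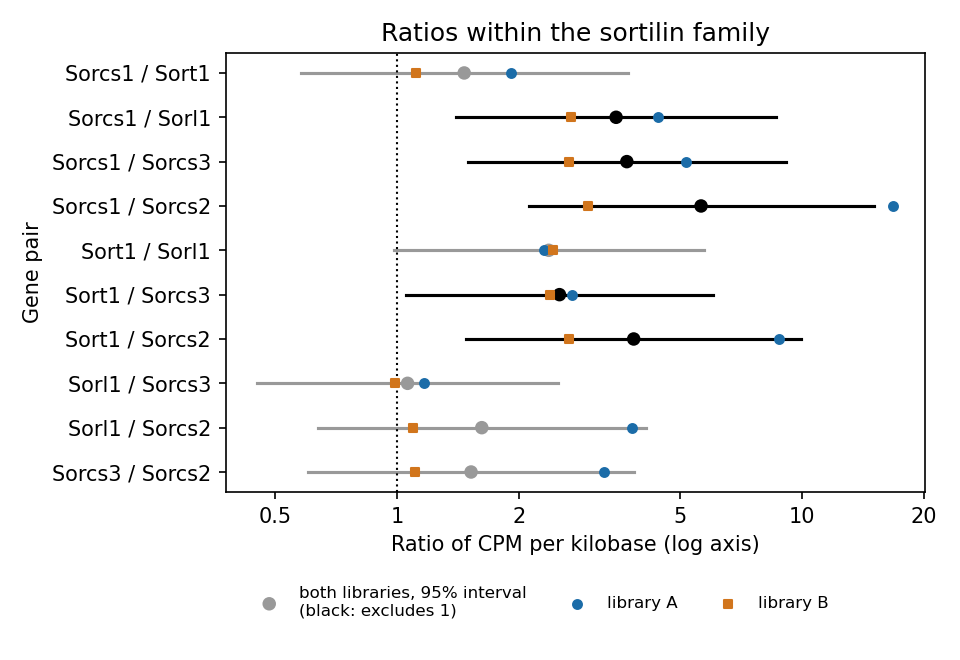
Ratio of CPM per kilobase for the 10 pairs of sortilin receptor genes on a log axis, with the 95% interval from both libraries (black where it excludes 1, grey otherwise), library A as circles and library B as squares. The 3 pairs of Sorcs1 with Sorl1, Sorcs3 and Sorcs2 and the 2 pairs of Sort1 with Sorcs3 and Sorcs2 exclude 1, and the colours lie furthest apart in pairs with Sorcs2.

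The libraries were compared gene by gene with an exact two-sided binomial test of the counts. A gene was called at a Benjamini-Hochberg adjusted p under 0.05 over the 14107 genes with at least 10 counts and a change of at least 2-fold. This compares 2 libraries and no conditions, and separately amplified libraries differ beyond counting error. Of all genes tested 44.5% were called, 33.6% higher in B and 10.9% higher in A. Of the 5 sortilin receptors 1 was called, Sorcs2, at 4.17-fold higher in B (exact binomial test, adjusted p = 2.73e-89). The median gene stood 0.57 higher in B on the log2 scale, and edgeR's TMM scaling moved every log2 ratio by -0.38, which gave Sorcs2 3.20-fold. With TMM 3383 genes were called higher in B and 2178 in A, against 4743 and 1531 with gene totals.

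Among the 3670 genes with at least 1000 counts over both libraries, which include all 5 sortilin receptors, 11.2% were called higher in B. That minimum was chosen after seeing the data. Sorcs2 reached it only through its 1181 counts in B, with 163 in A, so its rank among these genes is not read. Over all 14107 genes tested 17.8% had a higher ratio of B over A than Sorcs2. The other members lay under 2-fold, with Sorcs3 at 1.43-fold and Sorcs1 at 0.735-fold of B over A. Under TMM Sorcs3 moved close to 1, at 1.09-fold, and Sorcs1 moved further from it, to 0.564-fold. Sort1 at 1.27-fold and Sorl1 at 1.205-fold changed sides under TMM, to 0.970-fold and 0.924-fold.

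**Figure D3:**
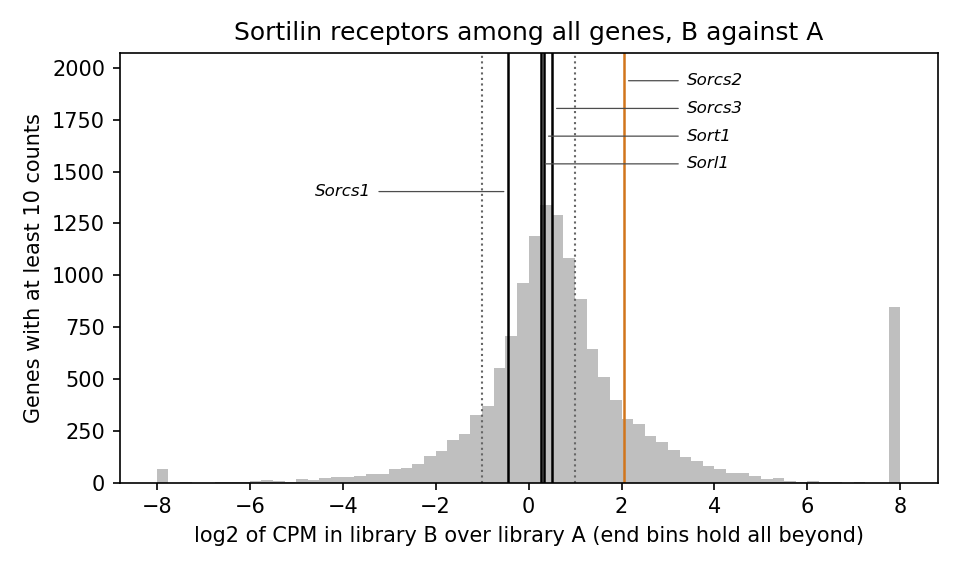
Number of genes by the log2 ratio of CPM in library B over library A for the 14107 genes with at least 10 counts (grey bars, end bins holding all values beyond), with a vertical line for each sortilin receptor and dotted lines at 2-fold. Sorcs2 lies at 2.06 and the other 4 genes lie within 2-fold.

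The label of the cells was checked with marker genes of retinal cell types. All 10 ganglion cell genes were detected, and their levels summed to 10545 CPM (A) and 14876 CPM (B). Jam2, which marks J-RGCs, stood at 2344 and 1203 CPM. That was 0.513-fold of B over A, short of the 2-fold minimum, so Jam2 was not called. The ganglion cell sum stood at 1.41-fold. Jam2, Tbr1, Sorcs3 and Cdh8, the genes tied to J-RGCs, summed to 0.574-fold with gene totals and lower still with TMM. Of these, Tbr1, Sorcs3 and Cdh8 were each higher in B with gene totals. Whether the share of J-RGCs differed between the libraries was not tested. Of 10 microglia genes 7 were detected (316 and 394 CPM in sum), of 7 Müller glia genes 5 (519 and 444 CPM), of 8 endothelial and mural genes 5 (412 and 120 CPM) and of 5 horizontal cell genes 4 (22.5 and 42.5 CPM). Dkk3 held 317 and 223 CPM of the Müller glia sums, while Rlbp1 of that list stood at 0 and 1.60 CPM. Of the same list Glul stood at 87.0 and 129 CPM, Vim at 75.9 and 38.7 CPM and Clu at 23.0 and 48.9 CPM. Slc1a3 was lower at 11.1 and 3.06 CPM, as was Aqp4 at 4.93 and 0 CPM. Rgs5 held 342 and 82.4 CPM of the endothelial and mural sums. The rod, cone, bipolar, amacrine and astrocyte lists summed to between 2.26 and 100.05 CPM, the highest being the bipolar list in A, of which Grm6 made up 96.4 CPM, and Opn1mw of cones and Lhx1 of horizontal cells had no count. With gene totals the ganglion, microglia, horizontal and cone lists were higher in B in sum, at 1.41-fold, 1.25-fold, 1.89-fold and 2.25-fold. The remaining cell type lists were lower in B in sum, from 0.0829-fold (bipolar) to 0.998-fold (rod). The median gene tested stood at 1.48-fold and Sorcs2 at 4.17-fold. Under TMM the microglia list was not higher in B, at 0.957-fold. The cone list summed to only 2.53 CPM in A and 5.68 CPM in B. Single genes of other lists were called in either direction. Of 7 endothelial and mural genes tested 3 were higher in B, Cdh5 (0.884 and 8.66 CPM), Tek (1.64 and 8.22 CPM) and Pecam1 (0.632 and 2.91 CPM). Another 3 were higher in A, Rgs5, Pdgfrb (51.9 and 10.3 CPM) and Kcnj8 (9.98 and 2.76 CPM). Of 4 amacrine genes tested 2 were higher in B, Gad1 (1.01 and 4.80 CPM) and Slc6a9 (0.758 and 4.44 CPM), and 0 higher in A. Tfap2b, the highest of that list, stood at 42.2 and 30.9 CPM and was not called. Over all genes 33.6% were called higher in B and 10.9% higher in A. The part of all these in the Sorcs2 difference was not tested. Sorl1 and Sort1 are also known from microglia and other cells, and the cells of origin of these reads were not examined.

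Beside the other genes tied to J-RGCs, Sorcs3 was far below Jam2, and its order with Tbr1 and Cdh8 was not resolved. Per length Jam2 exceeded Sorcs3 31.8-fold (95% interval 11.9 to 85.2), 51.0-fold in A and 18.3-fold in B. Tbr1 stood at 11.1 and 16.6 CPM per kilobase and was not separated from Sorcs3 (1.502-fold, 0.643 to 3.51), with a ratio of 1.46 in A and 1.53 in B. Cdh8, a classical cadherin gene, stood at 3.77 and 7.30 CPM per kilobase and was not separated from it either (0.6003-fold, 0.249 to 1.449). Sorcs3 and Cdh8 may have been picked by the study from these same libraries, and their detection then supports nothing independently.

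The ligands and cargo of the sortilin receptors were read unevenly. Uncleaved neurotrophins are ligands of sortilin and SorCS2, and of 4 neurotrophin genes 1 was detected. Bdnf stood at 14.3 CPM per kilobase in A and 2.89 in B and was called higher in A (0.202-fold of B over A). It was the only gene of this list tested, beside 10.9% of all genes called higher in A. Ntf3 had no count in either library, and Ntf5 had 0 and 1. The list's median was 0 in A and 0.0137 CPM per kilobase in B.

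Of 11 other ligand and cargo genes 8 were detected, with a median of 9.67 CPM per kilobase in A and 12.96 in B. Aplp1, a relative of the amyloid precursor protein, stood at 63.1 and 121 CPM per kilobase, the highest in B and by the mean. App itself, the cargo of SorLA, was the highest in A, with 82.9 and 93.5, and Psap, the lysosomal precursor sorted by sortilin, at 21.9 and 40.5 CPM per kilobase. Grn (progranulin) stood at 9.67 and 12.96, and Apoe at 10.5 and 15.6 CPM per kilobase. The neuropeptide gene Nts was the lowest by the mean, with 0 and 6 counts. Of the 9 tested 1, Pdgfb, was called higher in B, at 0.632 and 1.89 CPM, beside 33.6% over all genes.

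Among 8 signalling co-receptors 6 were detected, with a median of 3.57 CPM per kilobase in A and 3.87 in B. Ret, the receptor for GDNF family ligands, was the highest at 15.7 and 30.3 CPM per kilobase, and Ntrk2, the receptor of BDNF, stood at 6.96 and 13.5. Ngfr, the partner of sortilin and SorCS2 in proneurotrophin signalling, stood at 3.26 and 4.20 CPM per kilobase. Nradd, a relative of Ngfr, was the lowest at 0.139 and 0.4004 CPM per kilobase. Of the 8, 2 were called higher in B, among them Gfra1, a GDNF receptor, at 1.01 and 3.42 CPM, and none was called higher in A, beside 33.6% and 10.9% over all genes.

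The machinery that moves these receptors was read throughout. All 10 genes of the retromer coat and sorting nexins were detected, with a median of 15.2 CPM per kilobase in A and 23.0 in B. Vps35, the core subunit of retromer, stood at 100 CPM per kilobase in A and 34.3 in B. Snx5, a nexin that works with retromer, stood at 133 and 23.3 CPM per kilobase, the highest in A and by the mean, while Snx3 was the highest in B at 39.3. Snx1 was the lowest in both at 1.66 and 2.63 CPM per kilobase. Vps35 and Snx5 were called higher in A, and Vps29, Snx3 and Snx6 higher in B. These are 2 and 3 of 10, beside 10.9% and 33.6% over all genes.

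All 11 clathrin adaptor genes were also detected, with a median of 7.59 CPM per kilobase in A and 10.3 in B. Ap2b1, a subunit of the adaptor for uptake at the cell surface, stood at 117 and 75.9 CPM per kilobase. Pacs1, an adaptor for acidic sorting signals, stood at 47.9 and 27.4, and Ap1s1, a small subunit of the Golgi adaptor, stood at 1.15 and 0.596 CPM per kilobase, the lowest in B and by the mean. Of the GGA adaptors, which bind the tails of sortilin and SorLA, Gga3 was called higher in A at 7.55 and 2.97 CPM per kilobase, and Gga2 higher in B at 0.569 and 1.23. Ap2a1 was the other gene of this list called higher in B, which makes 2 of 11 higher in B and 1 of 11 higher in A, beside 33.6% and 10.9% over all genes.

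Of 12 proteases that mature or shed sortilin receptors or their cargo 10 were detected, with a median of 2.998 CPM per kilobase in A and 2.92 in B. Psenen, a gamma-secretase subunit, stood at 38.1 and 10.3 CPM per kilobase, the highest in A and by the mean. Adam10, a sheddase, was the highest in B, with 14.8 and 16.1, and Furin, which removes propeptides, at 0.826 and 1.81 CPM per kilobase. Pcsk6, another proprotein convertase, was the lowest with 2 and 3 counts. Of 11 tested, 3 were called higher in B (Furin, Ncstn and Aph1a) and 2 higher in A (Psenen and Pcsk7), beside 33.6% and 10.9% over all genes.

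All 9 synaptic partner genes were detected, with a median of 15.2 CPM per kilobase in A and 13.9 in B. Gria4 and Gria2, AMPA receptor subunits, stood at 42.6 and 71.1 and at 29.6 and 34.8 CPM per kilobase. Dlg4, the postsynaptic scaffold PSD-95, stood at 12.7 and 12.8, and Pick1, which binds AMPA receptors and SorCS3, at 0.999 and 2.19 CPM per kilobase. Pick1 was the lowest of the list and its 1 gene called higher in B, and none was called higher in A, beside 33.6% and 10.9% over all genes.

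Other sorting receptors are given for scale. Of 13 genes of the LDL receptor family 11 were detected, with a median of 4.78 CPM per kilobase in A and 8.54 in B. Vldlr, a reelin receptor, ran from 110 CPM per kilobase in A to 13.6 in B, and Lrp11 stood at 32.0 and 49.0, while Lrp2 was the lowest with 1 and 6 counts. Vldlr was called higher in A, and Lrp3, Lrp4 and Lrp5 higher in B, of 12 tested, beside 10.9% and 33.6% over all genes. The mannose phosphate receptors, which like sortilin carry enzymes to lysosomes, stood at 7.82 and 10.7 (M6pr) and at 2.10 and 3.23 CPM per kilobase (Igf2r), each lower than Sort1 in the same library.

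**Figure D4:**
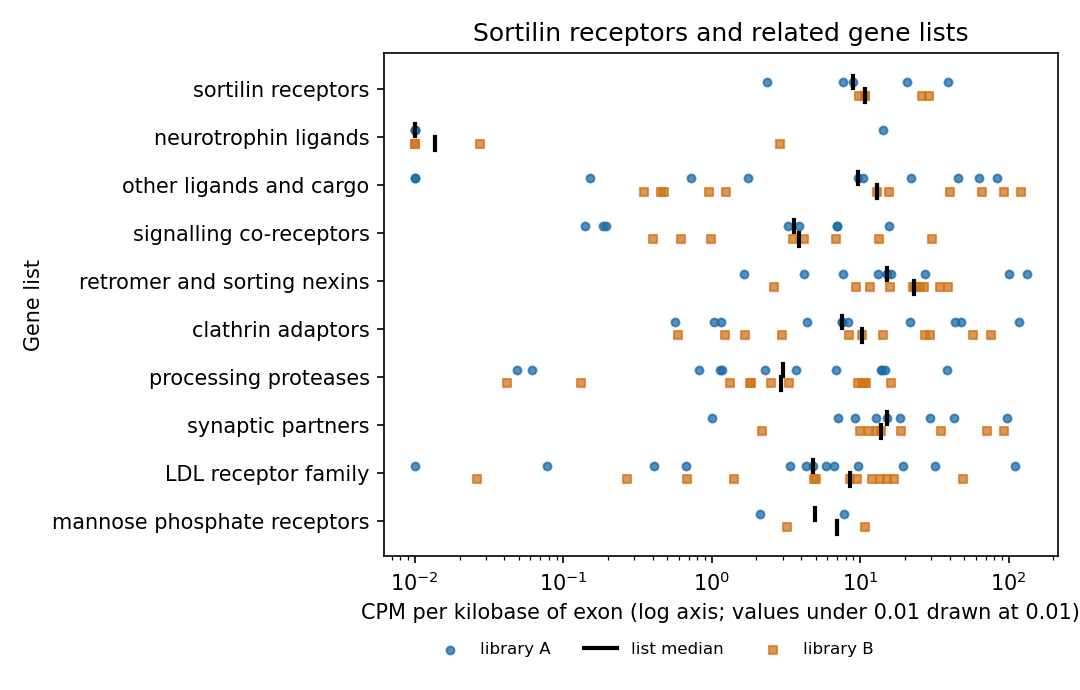
CPM per kilobase of exon on a log axis for the sortilin receptors and each related gene list, with library A as circles, library B as squares, a black bar at each list's median, and values under 0.01 drawn at 0.01. All 10 retromer and sorting nexin genes, 11 clathrin adaptors and 9 synaptic partners were detected, whereas 1 of 4 neurotrophin genes was.

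The genes most like each member were taken as the 3 detected genes with the smallest distance in log2 CPM per kilobase over the 2 libraries, a measure with 2 points only. For Sorcs3 these were Uba6 (7.52 and 10.8 CPM per kilobase), Mkrn1 (7.68 and 11.0) and Pwwp2a (7.52 and 11.0). For Sorcs1 they were St8sia3, Scn9a and Atp6v1g1, for Sort1 Adam22, Rbbp6 and Sf3b1, and for Sorl1 Clip1, Krcc1 and Trak1. For Sorcs2 they were Zfp397, Dpf2 and Pex19.

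The counts cannot tell isoforms apart. The GENCODE M21 annotation lists 8 transcripts of Sorcs1, 7 of them coding, 5 of Sorcs2, 4 of Sorl1 and 3 each of Sort1 and Sorcs3. In that annotation Sorcs1, Sorl1 and Sort1 share 213, 185 and 338 exon bases with a gene on the opposite strand. The sources used here do not say whether strand was used in counting, and reads from those bases cannot be told apart.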

How the data were processed

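Each library has 1 file, in which the authors deposited integer read counts for gene symbols. Per the submitters' processing notes the tools were Trimmomatic 0.32, TopHat2 2.0.10 and HTSeq 0.6.1, with build mm9. The sources used here do not give settings, annotation or strand use. Summary lines were left out of the totals. Reads assigned to a gene were 26.8% in A and 30.9% in B of those in the files.

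CPM is counts scaled to a gene total of 1000000. Lengths are summed exon lengths from GENCODE M21 (GRCm38), found for 94.4% of symbols. The builds differ, so no mm9 coordinates are given. The design has 1 group, so edgeR's quasi-likelihood test had no contrast. edgeR 4.0.16 in R 4.3.3 gave the dispersion from an intercept-only fit over 11272 genes (biological coefficient of variation 0.507). The libraries come from separate litters, and intervals and tests measure the spread or difference between these 2 only. Statistics were tested on simulated data. Alternatives were TMM, DESeq2 1.42.0 size factors, other lengths, dispersions and minimums, and each library left out. Other steps used Python 3.11.15 and scipy 1.17.1.

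The members and gene lists were chosen with earlier results of these data known. The named genes are the 5 members, genes of the lists with the highest and lowest of each (a few listed genes are not reported here), the 3 nearest genes of each member, and Jam2, Tbr1 and Cdh8.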

Additional observations from a re-analysis of the deposited data

How the results depend on the processing

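All 5 sortilin receptors remained detected under every alternative run, including a CPM of at least 10. The number of separated pairs, 5 of 10, was 9 with counting error only, 2 with intervals adjusted over all 10 pairs, and 0 to 5 with 1 library left out (0 without A, 5 without B). Sorcs1 over Sorcs3 ran from 2.66 to 5.16 with 1 library left out, and its call ended without A, where the ratio fell and the interval also widened because 1 sample remained. That lone sample was assumed to vary like the pair. Sorcs2 was called under each scaling, with B over A between 2.999-fold (DESeq2) and 4.17-fold, and was the 1 member called, except that with no fold minimum all 5 were, as were 77.8% of all genes. Of calls over all genes 75.6% were higher in B with gene totals, 60.8% with TMM and 56.5% with DESeq2 size factors. Of other single pair ratios and settings, 54 kept both their side of 1 and their call status. On the same side, 10 lost the call and 6 gained it, and 2 crossed 1 without a call. No pair or member called at the main settings changed direction. Sort1 and Sorl1, called only with no fold minimum, were higher in B with gene totals. With DESeq2 size factors they were lower in B, at 0.909-fold and 0.866-fold. No paired analysis was possible because there is 1 group. With 2 libraries the wide dispersion, more than depth, sets the intervals between members, since counting error alone separated 9 pairs.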
